A study of Mus musculus with 20 samples.

Results

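The chemokine ligand genes of mouse fat samples labelled as adipocytes are described here across 4 groups of expression arrays. The set holds each gene whose symbol begins with Ccl, Cxcl, Xcl or Cx3cl followed by a number and at most 1 letter, with the probe of highest mean over the 20 arrays standing for the gene. This rule, which used no difference between groups, found 38 of the 19505 genes measured. Chemokines are small secreted proteins that steer the movement of white blood cells through receptors coupled to G proteins. In fat tissue they are known mainly for drawing in and holding macrophages, and adipocytes, stromal cells, endothelium and resident immune cells can each make some of them. Many chemokine genes arose by local duplication and lie in clusters, so that neighbouring genes often have related sequences and receptors.

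By role the members were 4 monocyte attractants grouped as CCR2 ligands (Ccl2, Ccl7, Ccl8, Ccl12) and 5 genes grouped as MIP-1 type chemokines and RANTES (Ccl3, Ccl4, Ccl5, Ccl6, Ccl9). There were 3 eosinophil-attracting ligands of CCR3 (Ccl11, Ccl24, Ccl26), 5 neutrophil attractants grouped as CXCR2 ligands (Cxcl1, Cxcl2, Cxcl3, Cxcl5, Cxcl15) and 3 interferon-induced CXCR3 ligands (Cxcl9, Cxcl10, Cxcl11). Lymphoid tissue chemokines were 5 (Ccl19, Ccl21a, Ccl21b, Ccl21c, Cxcl13), CCR4 ligands 2 (Ccl17, Ccl22) and epithelial or mucosal chemokines 5 (Ccl20, Ccl25, Ccl27a, Ccl28, Cxcl17). The stromal chemokines were Cxcl12 and Cxcl14, the membrane-anchored ones Cx3cl1 and Cxcl16, and Ccl1 and Xcl1 formed no group.

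Total RNA was measured in 20 samples that the labels describe as adipocytes from mouse fat tissue differentiated in culture. The groups were wild-type sc, Olfm2 knockout sc, wild-type g and Olfm2 knockout g, with 5 arrays each, where sc and g are the labels' names for the fat depots. Olfm2 encodes olfactomedin 2, a secreted glycoprotein whose decrease in the fat cells of obese subjects is the topic of the series. The driver of the knockout, the strain, age and sex of the mice and any treatment are not stated in the labels. Titles carry a number, and each number occurs on an sc and a g array, but the labels do not say that a number is a mouse or that cultures were separate, so the p-values rest on a spread that may be technical.

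Olfm2 itself was lower in the knockout arrays. In sc its log2 signals were 4.28, 5.25, 5.02, 5.21 and 4.62 in wild type and 3.49, 2.98, 3.58, 2.67 and 3.36 in knockouts. In g they were 4.30, 4.60, 4.08, 4.54 and 4.17 and 3.44, 3.61, 3.36, 3.56 and 3.72. The groups did not overlap in either depot. The difference was -1.66 ± 0.19 (SE) in sc and -0.80 ± 0.19 in g on the log2 scale, with limma adjusted p of 0.000152 and 0.00784 and an exact two-sided permutation p of 0.00794 in each, the smallest that 5 against 5 arrays allow. Of the group means only that of wild-type sc (4.88) lay above 4.84, the highest median of the negative control probes on any array, so the difference in g compares signals at the level of background and that in sc is measured against such a signal. Precision is limited by having 5 arrays a group.

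The arrays also carried transcripts of other cell types. The mean log2 signal of 11 adipocyte markers was 10.64 to 11.62 over all arrays, so the markers of the labelled cell type were present on each. All 13 macrophage markers also lay above the negative control probes in at least 1 group. The macrophage mean was 8.23 to 8.56 in wild-type sc, 7.96 to 8.41 in knockout sc, 9.54 to 10.05 in wild-type g and 8.68 to 9.30 in knockout g. Lymphocyte markers averaged 8.37 on sc286WT, 8.81 on sc317KO, 8.55 on sc320KO and 7.38 on g309 WT, against 5.44 to 6.83 on the other 16 arrays. Hepatocyte markers averaged above 7 on 8 arrays, namely sc300KO, sc318KO, g286 WT, g308 WT and 4 of the 5 g knockout arrays (g306 KO, g317 KO, g318 KO, g320 KO). Skeletal muscle markers averaged up to 10.89 in wild-type sc. The macrophage, lymphocyte, hepatocyte and muscle signals go against a label of adipocytes alone, so the samples are named by depot and the source of the chemokine transcripts among these cells was not tested. Calls lost without the arrays of high lymphocyte or hepatocyte signal are named. No fit left out the arrays of high muscle signal as a set. In such bulk samples fewer cells of a type and less RNA per cell cannot be told apart.

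Of the 38 members, 33 had a mean above 4.84 in all 4 groups. Ccl1 and Cxcl15 did so in 3 groups. Cxcl5, Cxcl11 and Ccl26 were not above it in any group, and their differences compare signals at the level of background. Ccl21b and Ccl21c had identical values on every array, so they are 1 measurement, and Ccl21a differed from them by up to 0.79. These genes are near-identical copies, and which of them was measured is uncertain.

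**Figure D1:**
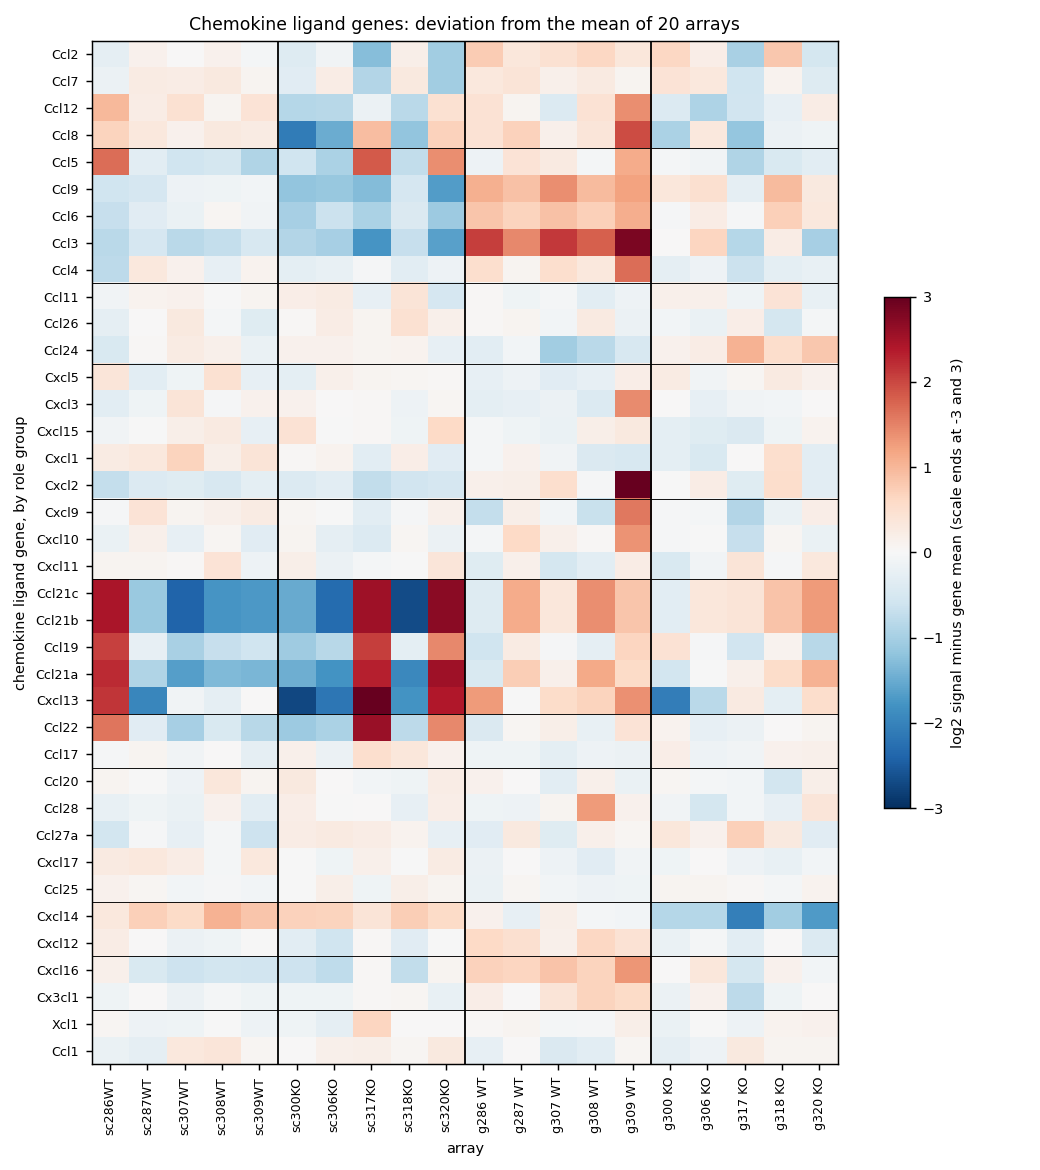
Deviation of each chemokine ligand gene (rows, ordered by role group, thin lines between groups) from its own mean over 20 arrays (columns, thick lines between groups), in log2 units with the colour scale ending at -3 and 3. Ccl3 is highest on the 5 g WT arrays, the lymphoid tissue chemokines are highest on sc286WT, sc317KO and sc320KO, and Cxcl2 stands out on g309 WT.

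In the g samples 9 of the 38 chemokine genes passed the test between knockout and wild type (limma moderated test, Benjamini-Hochberg adjusted p under 0.05 over all 19505 genes), against 11.3% of all genes. The 8 that fell were Ccl3, Ccl4, Ccl6, Ccl9, Cxcl12, Cxcl14, Cxcl16 and Cx3cl1, and the 1 that rose was Ccl24. That is 23.7% of the members, mostly in 1 direction, where 6.27% of all genes fell and 5.01% rose. The groups did not overlap for 5 members lower and 1 higher in knockouts, against 5.73% and 4.68% of all genes. Over all 38 members the median log2 difference was -0.22, and 28 lay below 0, while the median over all genes was 0.02.

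In the sc samples 0 of the 38 passed the same test, where 0.677% of all genes did, and no member had groups without overlap, where 2.94% of all genes did. An unadjusted p under 0.05 was found for 7 members in sc, 18.4% against 10.3% of all genes, and for 12 in g, 31.6% against 24.1%. The median difference in sc was -0.01, beside 0.01 over all genes, with 20 members below 0. The difference of the knockout effect between g and sc was tested directly by an interaction term, and 0 members passed, where 0.0769% of all genes did. An unadjusted p under 0.05 was found for 9 members there, 23.7% against 13% of all genes, with adjusted p between 0.104 for Cxcl14 and 0.382 for Cxcl1. A member that passed in g and not in sc was therefore not shown to differ between the depots.

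**Figure D2:**
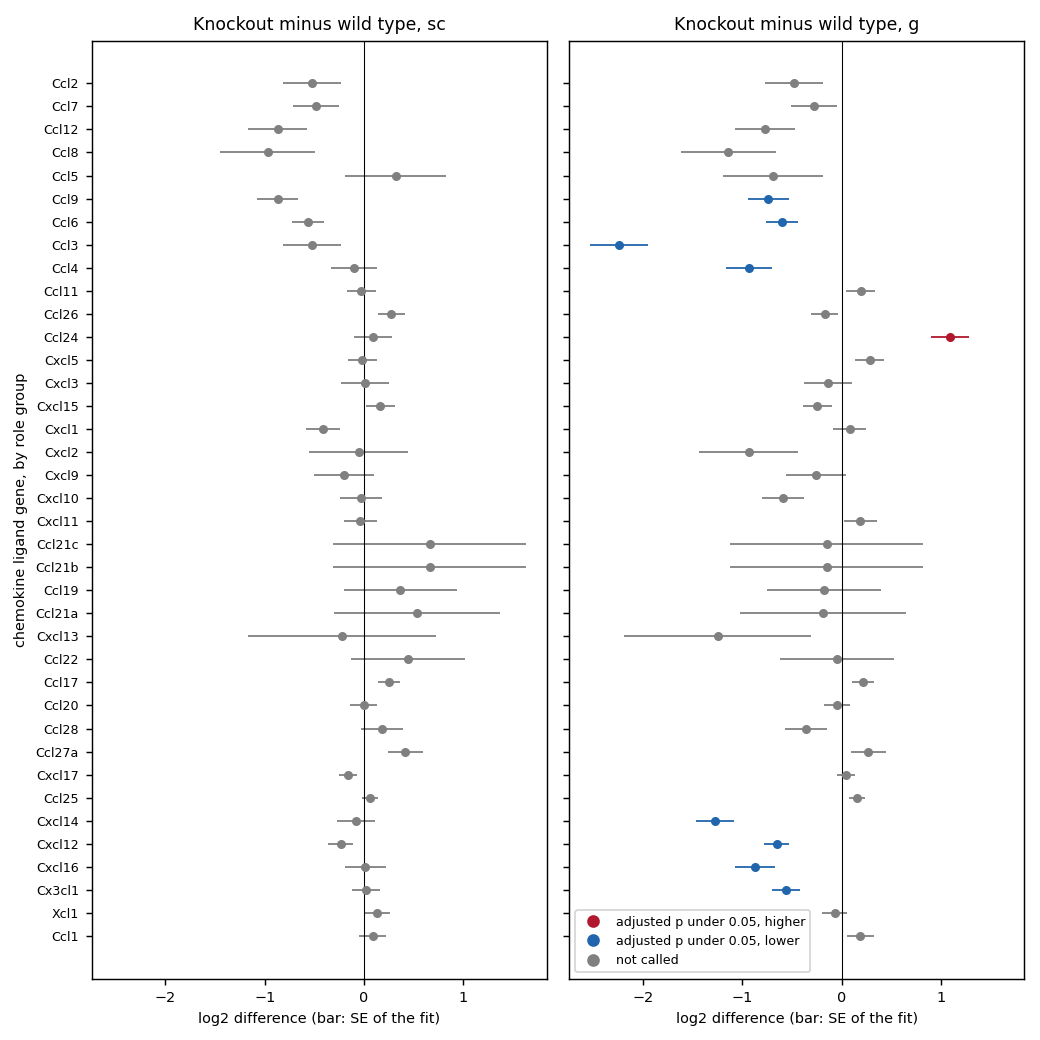
Log2 difference between knockout and wild type for the 38 members in sc (left) and g (right), ordered by role group, with bars of 1 SE of the fit over 5 against 5 arrays. Coloured points passed the adjusted threshold: 0 in sc, and in g 8 lower and Ccl24 higher.

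Of the 5 MIP-1 type and RANTES genes 4 fell in g knockouts, and the median difference of the 5 was -0.74. Ccl3, known as MIP-1 alpha and made by macrophages among other cells, showed the largest difference of all members. Its log2 signals in g were 8.99, 8.35, 9.03, 8.70 and 9.74 in wild type and 6.92, 7.56, 6.05, 7.14 and 5.93 in knockouts. Every knockout array lay below every wild-type array, with g317 KO and g320 KO lowest. The means were 8.96 ± 0.51 and 6.72 ± 0.71 (SD, n = 5), a 4.73-fold lower signal (log2 difference -2.24 ± 0.29 SE, limma adjusted p = 0.000106). In sc Ccl3 was at 6.10, 6.42, 6.11, 6.19 and 6.44 in wild type and 6.03, 5.92, 5.16, 6.23 and 5.28 in knockouts, and the groups overlapped (-0.53 ± 0.29, adjusted p = 0.564).

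Ccl4, MIP-1 beta, is the neighbour of Ccl3 and a related attractant of monocytes and T cells. In g its log2 signals were 5.99, 5.56, 5.98, 5.79 and 7.17 in wild type and 5.21, 5.33, 4.83, 5.20 and 5.27 in knockouts. The groups did not overlap, and g309 WT was more than 1 log2 unit above every other array. The difference was -0.93 ± 0.23 (limma adjusted p = 0.0121), and -0.66 without g309 WT (adjusted p = 0.0224). In sc the difference was -0.10 ± 0.23 (adjusted p = 0.931).

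Ccl9 and Ccl6 are mouse CCR1 ligands, abundant in myeloid cells. Ccl9 in g was at 11.54, 11.34, 11.85, 11.41 and 11.67 in wild type and 10.82, 10.96, 10.19, 11.42 and 10.75 in knockouts. All knockout arrays but g318 KO lay below the wild-type range, and the difference was -0.74 ± 0.20 (adjusted p = 0.0224). In sc it was at 9.87, 9.96, 10.32, 10.35 and 10.39 in wild type and 9.28, 9.34, 9.16, 9.96 and 8.79 in knockouts. Here too 4 knockout arrays lay below the wild-type range and sc318KO within it, and the difference was -0.87 ± 0.20 (adjusted p = 0.0524). Ccl9 thus missed the threshold narrowly in sc, where it passed under 9 of 32 alternatives, and its sc difference was as large as that in g (interaction 0.13 ± 0.29, adjusted p = 0.891). In g Ccl9 did not pass without g307 WT, g309 WT, g317 KO or g320 KO (adjusted p 0.0695, 0.0547, 0.0743 and 0.0514).

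Ccl6 followed the same order of groups as Ccl9. In g it was at 10.70, 10.53, 10.75, 10.58 and 10.96 in wild type and 9.84, 10.10, 9.83, 10.59 and 10.18 in knockouts, overlapping only through g318 KO. The difference was -0.60 ± 0.16 (adjusted p = 0.0181), and it did not pass without g309 WT (0.0578) or without g317 KO (0.0587). In sc Ccl6 was at 9.17, 9.53, 9.66, 9.93 and 9.75 in wild type and 8.87, 9.22, 8.93, 9.43 and 8.77 in knockouts, with a difference of -0.56 ± 0.16 (adjusted p = 0.124) that passed only without sc286WT (-0.67, adjusted p = 0.0478) among the alternatives. Ccl5, RANTES, a product of T cells and other leukocytes, was the member of this group that did not pass in g (-0.69 ± 0.51, adjusted p = 0.452).

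The stromal chemokines Cxcl12 and Cxcl14 both fell in g knockouts. Cxcl14, a chemokine of fibroblasts and epithelium, was at 7.69, 7.31, 7.72, 7.49 and 7.47 in wild-type g and 6.71, 6.71, 5.52, 6.50 and 5.86 in knockout g. The groups did not overlap, and g317 KO and g320 KO were lowest. This was a 2.42-fold lower signal (-1.28 ± 0.19, limma adjusted p = 0.000298). In sc Cxcl14 was at 7.87, 8.28, 8.14, 8.60 and 8.39 in wild type and 8.26, 8.22, 7.95, 8.30 and 8.13 in knockouts, and the groups overlapped (-0.08 ± 0.19, adjusted p = 0.931). Of the members its difference between the depots in knockout effect had the smallest p (-1.19 ± 0.27, unadjusted p = 0.000274, adjusted p = 0.104).

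Cxcl12, which holds cells that carry the receptor CXCR4 in place, was at 10.14, 10.01, 9.69, 10.16 and 9.96 in wild-type g and 9.33, 9.48, 9.22, 9.54 and 9.13 in knockout g. The groups did not overlap and the spread within each was under 0.5. The difference was -0.65 ± 0.12 (adjusted p = 0.00196). In sc its signals were 9.76, 9.55, 9.37, 9.40 and 9.51 in wild type and 9.22, 8.93, 9.56, 9.18 and 9.53 in knockouts (-0.23 ± 0.12, adjusted p = 0.542). Cxcr4, its signalling receptor, did not pass in g (-0.42 ± 0.20, adjusted p = 0.208), nor did its scavenging receptor Ackr3 (0.35 ± 0.13, adjusted p = 0.0854), although neither gene's g groups overlapped.

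The membrane-anchored chemokines Cxcl16 and Cx3cl1 also both fell in g. Cxcl16, a scavenger receptor for oxidised lipid as well as the ligand of CXCR6, was at 9.17, 9.13, 9.34, 9.14 and 9.81 in wild type and 8.49, 8.81, 7.94, 8.60 and 8.39 in knockouts, with no overlap (-0.87 ± 0.20, adjusted p = 0.0074). In sc it was at 8.64, 8.01, 7.85, 7.93 and 7.89 and 7.85, 7.72, 8.51, 7.75 and 8.55, where the high arrays were the 3 with high lymphocyte markers. Cx3cl1, fractalkine, was at 6.30, 6.12, 6.49, 6.77 and 6.69 in wild-type g and 5.93, 6.23, 5.31, 5.98 and 6.12 in knockout g. Only g306 KO reached into the wild-type range, and g317 KO was lowest. The difference was -0.56 ± 0.14 (adjusted p = 0.0135), and it did not pass when the g arrays alone were fitted (adjusted p = 0.0654). In sc Cx3cl1 differed by 0.02 ± 0.14 (adjusted p = 0.983).

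Ccl24, eotaxin-2, which attracts eosinophils through CCR3, was the chemokine that rose. In g its log2 signals were 6.35, 6.58, 5.62, 5.85 and 6.17 in wild type and 6.79, 6.89, 7.71, 7.18 and 7.47 in knockouts. Every knockout array lay above every wild-type array, with g317 KO and g320 KO highest. The signal was 2.13-fold higher (1.09 ± 0.19, limma adjusted p = 0.000847). In sc Ccl24 was at 6.20, 6.69, 6.90, 6.81 and 6.47 in wild type and 6.79, 6.79, 6.74, 6.76 and 6.42 in knockouts (0.09 ± 0.19, adjusted p = 0.921). The other CCR3 ligands did not pass in g, with 0.19 ± 0.15 (adjusted p = 0.466) for Ccl11, eotaxin-1, and -0.17 ± 0.13 for Ccl26, which lay at background. The receptor gene Ccr3 itself fell in g, from 5.18, 4.73, 6.46, 6.37 and 5.95 in wild type to 3.95, 4.65, 4.16, 5.18 and 3.86 in knockouts (-1.38 ± 0.30, adjusted p = 0.00481). The groups overlapped through g318 KO, and the knockout mean of 4.36 lay below the 4.84 of the negative controls. Ccr3 was the 1 of 4 eosinophil markers that passed, Epx was not above the negative controls in any group, and the array means of the list were 5.26 to 5.69 in wild-type g and 4.97 to 5.23 in knockout g. Ccr3 alone carried this shift of the list, since Siglecf and Prg2 differed by 0.19 ± 0.13 and 0.11 ± 0.15 and Epx by -0.12 ± 0.09, and the median of the 4 was -0.0063.

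**Figure D3:**
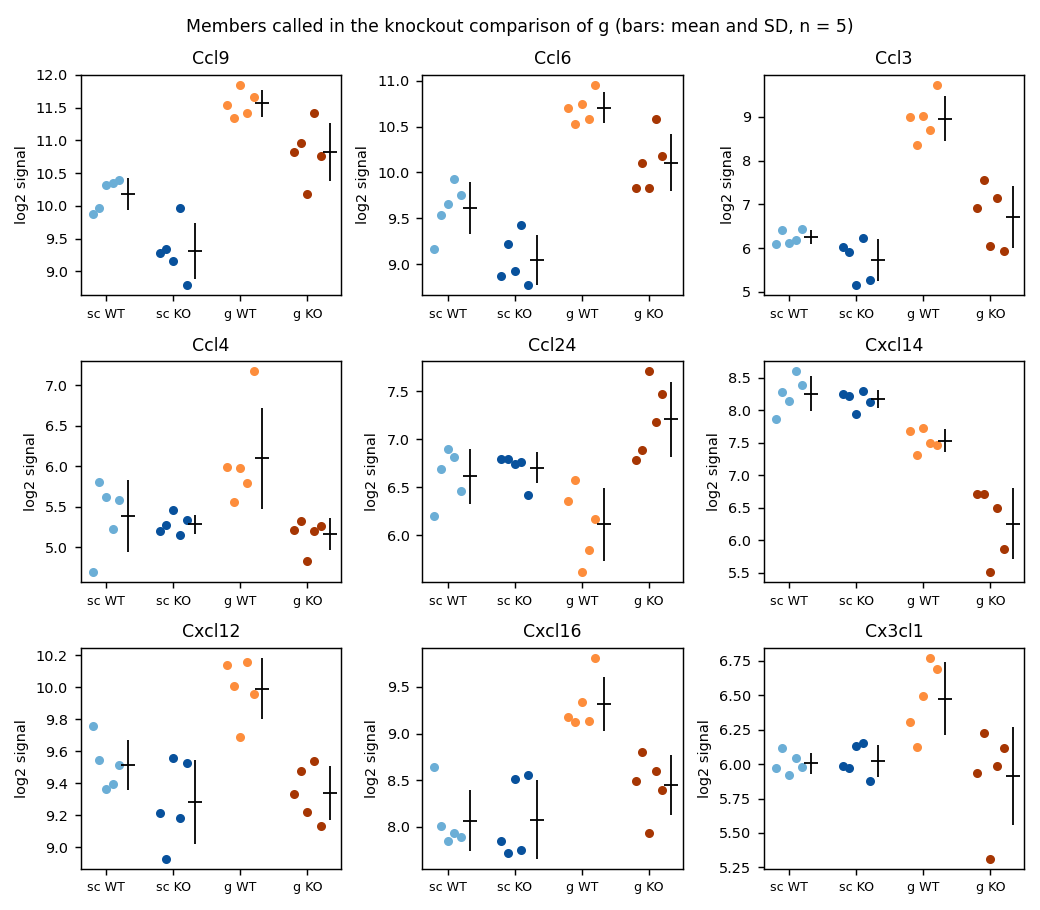
Log2 signal on each array of the 9 members that passed in the knockout comparison of g, in the 4 groups, with black bars for the mean and SD of 5 arrays (vertical axes do not start at 0 and differ between panels). Ccl3 in g ran from 8.35 to 9.74 in wild type and from 5.93 to 7.56 in knockouts.

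Markers of other cells moved in the same comparison. Of 8 preadipocyte and fibroblast markers 3 fell in g knockouts, the matrix genes Lum (-1.26 ± 0.21, adjusted p = 0.000585), Col3a1 (-0.71 ± 0.16, 0.00686) and Dcn (-0.28 ± 0.08, 0.0280), and 7 lay below 0. Their array means were 9.43 to 9.55 in wild-type g and 9.02 to 9.31 in knockout g, beside the falls of the stromal chemokines Cxcl12 and Cxcl14, and their part in those was not tested. In g knockouts 11 of 13 macrophage markers fell and 1, Cd163, rose (1.04 ± 0.22, adjusted p = 0.0035), and the array means of the list did not overlap between 9.54 to 10.05 in wild type and 8.68 to 9.30 in knockouts. Mast cell markers fell for 9 of 10 genes, with array means of 7.29 to 8.23 in wild type and 5.58 to 6.32 in knockouts, while Ms4a2 was not above the negative controls in any group. Adipocyte markers rose for 8 of 11 genes, with array means of 10.64 to 11.04 in wild type and 11.23 to 11.46 in knockouts. With the macrophage mean as a covariate 0 members passed in g, where 1 of all 19505 genes did, and the range of this mean does not overlap between the groups. The differences were then -1.18 for Ccl3, -0.67 for Cxcl14, -0.54 for Cxcl12, -0.36 for Cxcl16, -0.20 for Cx3cl1, -0.14 for Ccl4 and 0.88 for Ccl24, and Ccl6 and Ccl9 came to 0.02 and 0.16.

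Hepatocyte markers were high on 4 of the 5 g knockout arrays and 2 of the 5 g wild-type arrays. With their mean as a covariate 5 members (Ccl3, Ccl24, Cx3cl1, Cxcl12 and Cxcl14) still passed in g, where 5.61% of all genes did. Ccl4, Ccl6, Ccl9 and Cxcl16 then had adjusted p of 0.0635, 0.0690, 0.0922 and 0.0533. Without the arrays of high hepatocyte signal only g300 KO remains of the g knockouts, and 0 members and 43 of all genes passed. That 1 array has no spread of its own and is assumed to vary as the other groups do. The differences there ran from -2.12 for Ccl3 (adjusted p = 0.0612) to 0.66 for Ccl24 (adjusted p = 0.471), with -0.79 for Cxcl14 (adjusted p = 0.214).

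Promoters are shown for Ccl3 and Cxcl14, the members with the largest falls in g. They are the 250 bases before the start of the gene in RefSeq (GRCm38.p6), read 5′ to 3′ on the gene's strand, at chr11:83649379-83649628 (minus strand) and chr13:56296552-56296801 (minus strand). Such windows matched 26 of the members by symbol. Capitals mark matches on either strand to an NF-kB core (GGGA, any 2 bases, TTCC), an interferon-stimulated response element (GAAA, any 2 bases, GAAA) or a STAT-type GAS element (TTC, any 3 bases, GAA).
Ccl3: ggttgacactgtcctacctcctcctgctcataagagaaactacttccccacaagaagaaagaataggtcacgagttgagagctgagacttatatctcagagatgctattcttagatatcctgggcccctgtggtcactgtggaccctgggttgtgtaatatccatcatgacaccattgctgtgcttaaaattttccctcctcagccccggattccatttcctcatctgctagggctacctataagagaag
Cxcl14: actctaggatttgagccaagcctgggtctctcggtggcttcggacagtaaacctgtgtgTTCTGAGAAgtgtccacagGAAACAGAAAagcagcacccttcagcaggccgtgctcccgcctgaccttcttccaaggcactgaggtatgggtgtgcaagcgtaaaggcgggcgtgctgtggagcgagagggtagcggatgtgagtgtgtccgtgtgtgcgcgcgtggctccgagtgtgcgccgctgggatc
The Ccl3 window holds no match. That of Cxcl14 holds an interferon-type match beginning 172 bases and a GAS match beginning 191 bases before the start. Over the 32851 windows of all genes 1.21% hold the NF-kB core, 2.98% the interferon-type motif and 7.02% the GAS motif. None of the 3 motifs was found in the windows of the other members that fell and had one, Ccl6, Ccl9, Cxcl12 and Cx3cl1. A match is a match of letters, and the lack of one says only that these letters are not in this window.

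In RefSeq's order on chromosome 11 the 12 members there form a run of Ccl2, Ccl7, Ccl11, Ccl12, Ccl8 and Ccl1 and a later run of Ccl5, Ccl9, Ccl6, Ccl3 and Ccl4, with Cxcl16 apart from both. The later run holds the same 5 genes as the MIP-1 type and RANTES group. Its 4 falls in g knockouts and its median difference of -0.74 are thus the result given above, not a further one. Of the 6 genes of the earlier run 0 passed, where 11.3% of all genes did, with differences from -1.14 to 0.19 and a median of -0.38. On chromosome 5, which holds 11 members including the Cxcl1 to Cxcl3 and Cxcl9 to Cxcl11 neighbours, 0 fell and Ccl24 rose. Of all genes 6.27% fell and 5.01% rose in g, so counts this low in so few genes are near background and show no contrast between clusters.

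The monocyte attractants grouped as CCR2 ligands did not pass in either depot, and all 4 lay below 0 in both. Their median differences were -0.70 in sc and -0.62 in g. Ccl8 was at 7.95, 7.59, 7.41, 7.58 and 7.54 in wild-type sc and 5.17, 5.80, 8.21, 6.08 and 7.96 in knockout sc. The knockout arrays fell apart, with sc317KO and sc320KO, which have high lymphocyte and muscle markers, above every wild-type array and the other 3 below every one. With all arrays the sc difference was -0.97 ± 0.48 (adjusted p = 0.499). Without the arrays of high lymphocyte signal it was -1.84 over 4 against 3 arrays (adjusted p = 0.00875), and with the lymphocyte mean as a covariate -1.31 (adjusted p = 0.0418).

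Ccl12 split otherwise. It was at 6.99, 6.24, 6.47, 6.10 and 6.43 in wild-type sc and 5.16, 5.19, 5.85, 5.20 and 6.47 in knockout sc. Of the knockout arrays only sc320KO lay within the wild-type range, and sc317KO lay below it with the other 3. Its sc difference was -0.87 ± 0.30 (adjusted p = 0.236) with all arrays, -1.13 (adjusted p = 0.042) without those of high lymphocyte signal and -1.04 (adjusted p = 0.0454) with the covariate. In g Ccl8 was at 7.72, 7.98, 7.43, 7.63 and 9.23 in wild type and 6.32, 7.59, 6.12, 7.11 and 7.15 in knockouts, overlapping through g306 KO (-1.14 ± 0.48, adjusted p = 0.141). It passed without g309 WT and the 3 sc arrays of high lymphocyte signal (-0.83, adjusted p = 0.0423), but not without g309 WT alone (adjusted p = 0.344). Ccl12 in g differed by -0.77 ± 0.30 (adjusted p = 0.108).

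Ccl2, MCP-1, the chemokine best known for drawing monocytes into fat, was at 7.27, 7.67, 7.55, 7.67 and 7.47 in wild-type sc and 7.16, 7.43, 6.25, 7.70 and 6.49 in knockout sc. In g it was at 8.29, 7.88, 8.003, 8.15 and 7.87 in wild type and 8.17, 7.73, 6.55, 8.33 and 7.02 in knockouts. In each depot the knockout arrays sc317KO and sc320KO, and g317 KO and g320 KO, were lowest and the others lay near or within the wild-type range. Without the arrays of high hepatocyte signal, with g300 KO alone as the g knockout, the g difference was 0.25 for Ccl2 and 0.20 for Ccl7. Neither difference passed (-0.52 ± 0.29 in sc, adjusted p = 0.568, and -0.48 ± 0.29 in g, adjusted p = 0.346). Ccl7, MCP-3, had the same low arrays, at 6.27 and 6.10 in sc and 6.57 and 6.77 in g, and differences of -0.49 ± 0.23 and -0.28 ± 0.23. For 6 members (Ccl2, Ccl7, Ccl11, Ccl9, Ccl3 and Cxcl14) these were the 2 lowest knockout arrays in both depots, 15.8% of the members, as they were for 7.09% of all genes.

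In wild-type samples 10 of the 38 members differed between the depots, against 17.8% of all genes, 7 of them higher in g (9.3% of all genes) and 3 lower (8.48%). The signals did not overlap for 9 members, 7 higher and 2 lower in g, where 8.73% and 7.36% of all genes had no overlap. The median depot difference was 0.16, beside -0.04 over all genes. Ccl3 was 6.55-fold higher in g than in sc (2.71 ± 0.29, adjusted p = 3.47e-06), Ccl9 2.61-fold (1.39 ± 0.20), Cxcl16 2.38-fold (1.25 ± 0.20) and Ccl6 2.14-fold (1.10 ± 0.16), all with no overlap between depots. Ccl4 (0.71 ± 0.23, adjusted p = 0.0384), Cxcl12 (0.47 ± 0.12) and Cx3cl1 (0.47 ± 0.14) were also higher in g, with overlap for Ccl4 and Cxcl12. The call of Ccl4 was lost without sc286WT, sc308WT, g286 WT, g307 WT or g309 WT (adjusted p 0.0548 to 0.0992), with a difference of 0.44 without g309 WT and of 0.27 without all arrays of high lymphocyte signal. That of Cx3cl1 was lost without sc307WT, sc309WT, g307 WT, g308 WT or g309 WT (0.0502 to 0.0745) and without the arrays of high lymphocyte signal (0.41, adjusted p = 0.104). Without those of high hepatocyte signal Ccl4 (0.85, adjusted p = 0.106) and Cxcl12 (0.37, adjusted p = 0.150) did not pass. Each of these 7 genes fell in g knockouts, but both comparisons use the same 5 wild-type g arrays.

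Lower in g than in sc wild type were Cxcl14 (-0.72 ± 0.19, adjusted p = 0.0115), the neutrophil attractant Cxcl1 (-0.55 ± 0.17, adjusted p = 0.0269, and 0.0503 to 0.0825 without sc307WT, sc309WT, g308 WT or g309 WT) and Cxcl17, a mucosal chemokine (-0.37 ± 0.09, adjusted p = 0.00774). Without the arrays of high hepatocyte signal Cxcl1 and Cxcl17 did not pass (-0.51 and -0.29, adjusted p 0.0592 and 0.135), nor did Cxcl1 without those of high lymphocyte signal (-0.51, adjusted p = 0.0579). Among knockouts 3 members differed between depots, against 4.13% of all genes. Ccl9 (1.52 ± 0.20) and Ccl6 (1.06 ± 0.16) were higher in g (2.87% of all genes) and Cxcl14, lower in g as were 1.27% of all genes, was 3.77-fold lower (-1.91 ± 0.19, adjusted p = 4.54e-06), each with no overlap, as 2.31% of all genes were higher and 1.95% lower. Ccl3 did not pass there (0.997 ± 0.293, adjusted p = 0.0625). In that comparison 9 members passed without the arrays of high lymphocyte signal, where 3.38% of all genes did. Without those of high hepatocyte signal, with g300 KO alone as the g knockout, the difference of Ccl6 was 0.86 and its call was lost. That 1 array has no spread of its own. The macrophage mean differed between the depots as well, at 8.23 to 8.56 in wild-type sc and 9.54 to 10.05 in wild-type g, and with it as a covariate 0 members passed in wild type, as did only 2 of all genes. Its part in the result was not tested beyond that.

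The lymphoid tissue chemokines varied far more between arrays than between groups. Ccl19 and Ccl21 guide cells that carry the receptor CCR7 into lymph nodes, and Cxcl13 draws B cells into follicles. Ccl21a in sc was at 10.36, 7.21, 6.47, 6.80 and 6.76 in wild type and 6.65, 6.34, 10.44, 6.18 and 10.66 in knockouts. Ccl19 was at 7.36, 5.07, 4.35, 4.62 and 4.73 and 4.25, 4.50, 7.40, 5.03 and 6.77. The high arrays were in every case sc286WT, sc317KO and sc320KO, the 3 sc arrays with high lymphocyte markers.

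Cxcl13 in sc was at 9.99, 5.87, 7.73, 7.57 and 7.85 in wild type and 5.10, 5.67, 10.84, 6.05 and 10.23 in knockouts, with the same 3 arrays highest. As a description of these arrays, 9 members lay above all 7 other sc arrays on all 3 of them, 23.7% against 7.55% of all genes, with Ccl21b and Ccl21c as 1 measurement among them. Their gaps were 3.56 for Ccl21b and Ccl21c, 3.16 for Ccl21a, 2.13 for Cxcl13, 1.78 for Ccl22, 1.71 for Ccl5, 1.70 for Ccl19, 0.50 for Cxcl16 and 0.36 for Ccl8. Ccl11 and Cxcl14 lay below the other 7 sc arrays, 5.26% against 7.72% of all genes, and 27 members overlapped. Ccl22, a CCR4 ligand of dendritic cells, was at 8.61, 9.59 and 8.43 on those 3 arrays and between 5.91 and 6.65 on the others. The same 3 arrays had high skeletal muscle markers, with means of 10.89, 7.97 and 7.32. So had sc307WT, with a muscle mean of 9.07 and a lymphocyte mean of 5.52. On that array Ccl21a was at 6.47 and Ccl22 at 6.01, among the other sc arrays. The part of lymphoid tissue or of muscle in these values was not tested.

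**Figure D4:**
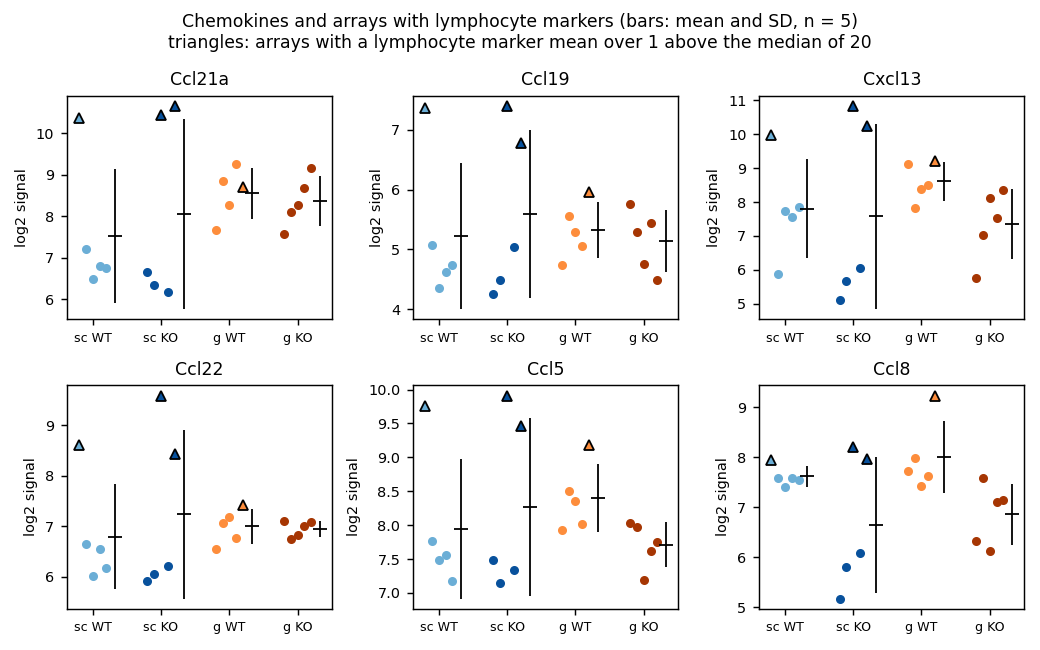
Log2 signal on each array of 6 members in the 4 groups, with triangles for the 4 arrays whose lymphocyte marker mean was more than 1 above the median of 20, and black bars for the mean and SD of 5 arrays (axes differ between panels). In sc the triangles of Ccl21a, Ccl19, Cxcl13, Ccl22, Ccl5 and Ccl8 lie above all other sc arrays.

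In g the lymphoid tissue chemokines spread without such a split. Ccl21a was at 7.66, 8.85, 8.28, 9.26 and 8.70 in wild type and 7.57, 8.10, 8.28, 8.68 and 9.17 in knockouts (-0.19 ± 0.84, adjusted p = 0.932). Ccl19 was at 4.73, 5.57, 5.29, 5.05 and 5.96 and 5.76, 5.29, 4.76, 5.43 and 4.49 (-0.18 ± 0.57, adjusted p = 0.901). Cxcl13 was at 9.11, 7.83, 8.39, 8.51 and 9.20 and 5.76, 7.02, 8.11, 7.53 and 8.36, with g300 KO and g306 KO lowest, and did not pass (-1.25 ± 0.95, adjusted p = 0.469). The fit pools the spread over all 4 groups, so the split sc arrays widen the SE of these genes in g.

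Array g309 WT was the highest of all 20 arrays for 10 members (26.3%, against 4.05% of all genes) and the highest of the 5 wild-type g arrays for 19 of 38 (18.6% of all genes). The 10 were the neutrophil-attracting Cxcl2 and Cxcl3, the interferon-induced Cxcl9 and Cxcl10, and Ccl3, Ccl4, Ccl6, Ccl8, Ccl12 and Cxcl16. By its gap to the next wild-type g array Cxcl2 came first (3.46), then Cxcl3 (1.59), Cxcl9 (1.39), Ccl8 (1.25) and Ccl4 (1.18). Cxcl2, MIP-2, was at 5.67, 5.69, 6.01, 5.49 and 9.47 in wild-type g and 5.51, 5.74, 5.16, 6.04 and 5.20 in knockout g, and g309 WT lay above every other array. Cxcl3 was at 6.29, 6.34, 6.41, 6.19 and 8.001 and 6.60, 6.34, 6.48, 6.52 and 6.61. Cxcl1, a related ligand of the same receptor, was at 5.64, 5.84, 5.60, 5.26 and 5.24 and 5.41, 5.25, 5.72, 6.21 and 5.40, and here g309 WT was the lowest of its group.

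Cxcl9 and Cxcl10, induced by interferon gamma and bound by CXCR3, were also highest on g309 WT. Cxcl9 was at 8.51, 9.40, 9.14, 8.55 and 10.79 in wild-type g and 9.18, 9.15, 8.35, 9.02 and 9.42 in knockout g. Cxcl10 was at 5.73, 6.37, 5.92, 5.81 and 7.12 and 5.75, 5.77, 5.08, 5.84 and 5.58. No CXCR2 or CXCR3 ligand passed in g, with -0.93 ± 0.50 (adjusted p = 0.269) for Cxcl2, -0.14 ± 0.24 for Cxcl3, 0.08 ± 0.17 for Cxcl1, -0.25 ± 0.30 for Cxcl9 and -0.59 ± 0.21 (adjusted p = 0.0805) for Cxcl10. Without g309 WT the difference of Cxcl2 was -0.18 and that of Cxcl10 -0.36, while Cxcl3 and Cxcl9 changed sign to 0.20 and 0.12 (adjusted p 0.567, 0.221, 0.344 and 0.785), and Cxcl1 was at 0.0122.

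Some inflammatory genes outside the family were high on the same array. Others were not: Tnf was at 6.72 on g309 WT and 6.74 on g307 WT, and Il6 at 3.97 lay below the negative controls. Il1b, the cytokine interleukin-1 beta, was at 9.91 on g309 WT and at 4.71 to 5.34 on the other 4 wild-type g arrays. S100a9, a calcium-binding protein of neutrophils and monocytes, was at 8.06 against 4.45 to 4.81, and Il1a at 6.04 against 3.82 to 3.93. The 7 neutrophil markers averaged 6.21 on g309 WT and 5.16 to 5.52 on the others, with Camp and Ltf not above the negative controls in any group. S100a9 is 1 of the 7, so this mean is not separate from the high value of that gene. These genes were chosen after their values were seen, and their part in the result was not tested.

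**Figure D5:**
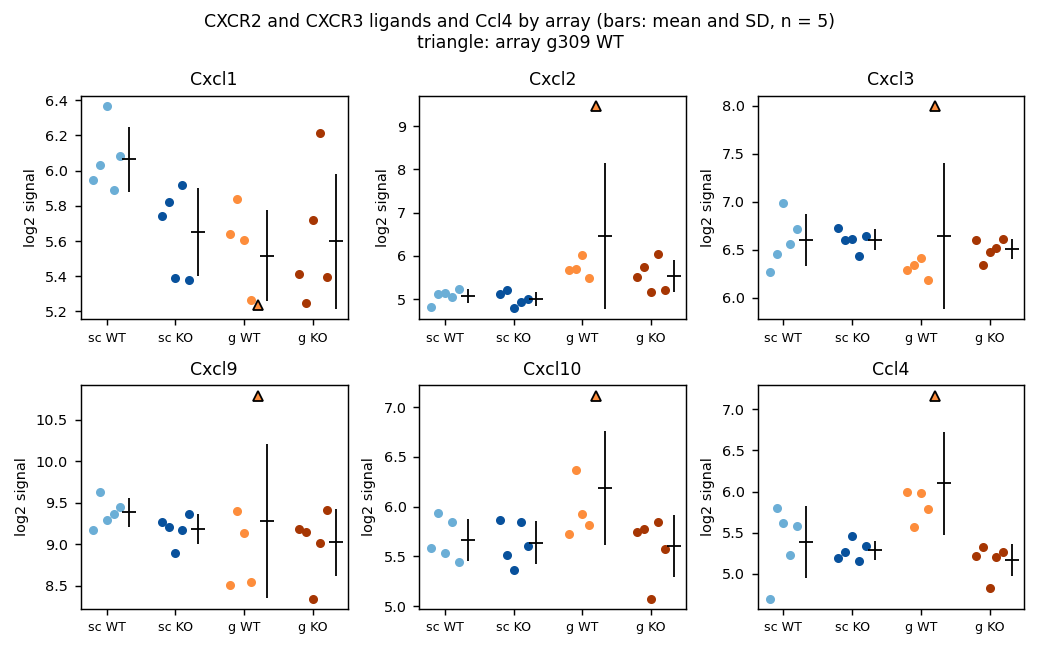
Log2 signal on each array of Cxcl1, Cxcl2, Cxcl3, Cxcl9, Cxcl10 and Ccl4 in the 4 groups, with a triangle for g309 WT and black bars for the mean and SD of 5 arrays (axes differ between panels). The triangle is highest of all arrays except for Cxcl1, where it is the lowest of the wild-type g arrays.

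The promoter windows of Cxcl1, Cxcl2, Cxcl3 and Cxcl10 are shown because these genes hold the NF-kB core and divide into those high and not high on g309 WT. They were chosen after the values were seen. They lie at chr5:90890995-90891244 (plus strand), chr5:90903649-90903898 (plus strand), chr5:90785851-90786100 (plus strand) and chr5:92348890-92349139 (minus strand) in GRCm38.p6, with capitals as before.
Cxcl1: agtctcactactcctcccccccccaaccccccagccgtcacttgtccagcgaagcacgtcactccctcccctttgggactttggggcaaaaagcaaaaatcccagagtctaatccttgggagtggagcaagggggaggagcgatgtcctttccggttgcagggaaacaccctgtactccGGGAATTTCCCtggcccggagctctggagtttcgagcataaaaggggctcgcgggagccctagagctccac
Cxcl2: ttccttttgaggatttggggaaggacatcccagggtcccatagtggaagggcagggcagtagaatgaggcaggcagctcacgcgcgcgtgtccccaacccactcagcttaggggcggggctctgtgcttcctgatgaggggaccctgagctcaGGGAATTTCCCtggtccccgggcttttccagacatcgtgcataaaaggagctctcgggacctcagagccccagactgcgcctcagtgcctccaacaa
Cxcl3: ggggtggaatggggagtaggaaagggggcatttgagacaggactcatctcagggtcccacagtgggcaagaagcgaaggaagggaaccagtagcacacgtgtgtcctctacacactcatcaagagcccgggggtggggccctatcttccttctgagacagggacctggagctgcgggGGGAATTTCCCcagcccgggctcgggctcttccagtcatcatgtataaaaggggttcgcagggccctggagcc
Cxcl10: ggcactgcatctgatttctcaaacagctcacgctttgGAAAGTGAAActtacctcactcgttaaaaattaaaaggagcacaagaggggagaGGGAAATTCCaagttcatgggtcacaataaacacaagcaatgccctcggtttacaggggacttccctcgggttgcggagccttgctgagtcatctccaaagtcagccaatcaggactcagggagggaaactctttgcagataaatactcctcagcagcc
The windows of Cxcl1, Cxcl2 and Cxcl3 hold the same run of capitals, which contains 2 overlapping matches, 1 on each strand, the first beginning 71, 97 and 73 bases before the start. Cxcl1 thus shares the match with Cxcl2 and Cxcl3 but was not high on g309 WT. Of the other members highest on g309 WT, Ccl3, Ccl6, Ccl8, Ccl12 and Cxcl9 have windows that hold none of the 3 motifs. Ccl4 and Cxcl16 had no window. Whether the motifs bear on the signals of g309 WT was not tested. Cxcl10 holds the NF-kB core 159 bases and the interferon-type motif 213 bases before its start. Of the 26 members with a window 5 hold the NF-kB core (Ccl1, Cxcl1, Cxcl2, Cxcl3 and Cxcl10), 3 the interferon-type motif (Ccl19, Cxcl10 and Cxcl14) and 2 the GAS motif (Ccl17 and Cxcl14).

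The remaining members showed small differences. Cxcl5 and Cxcl15 did not pass in either depot, nor did Cxcl11. Ccl17 differed by 0.25 ± 0.11 in sc and 0.21 ± 0.11 in g, and Ccl22 by 0.44 ± 0.57 and -0.04 ± 0.57. Of the epithelial and mucosal chemokines Ccl27a had the largest difference in sc (0.41 ± 0.18, adjusted p = 0.394) and Ccl28 in g (-0.36 ± 0.21, adjusted p = 0.330), and Ccl20, Ccl25 and Cxcl17 lay between -0.16 and 0.15 in both. Ccl1 and Xcl1 lay between -0.07 and 0.19. A difference that does not pass is not shown to be absent at 5 arrays a group.

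Of the genes that act with these ligands few passed in g, and 0 did in sc. For comparison 11.3% of all genes passed in g and 46.6% lay below 0, and the shares that passed among receptors (5.88%), NF-kB genes (14.3%) and interferon gamma genes (12.5%) were near or under that background. Among 17 chemokine receptors 16 lay below 0 in g and 1, Ccr3, fell, while Ccr1 and Ccr2 differed by -0.28 ± 0.27 and -0.09 ± 0.17 (adjusted p 0.586 and 0.809). Of 5 atypical receptors, which take up chemokines without signalling through G proteins, 0 passed. Pf4, a chemokine of platelets and macrophages with a symbol outside the rule, fell in g (-0.70 ± 0.18, adjusted p = 0.0133, no overlap). Of 21 genes of the NF-kB pathway and its early targets 3 fell and all 21 lay below 0, with a median of -0.31. These were the cytokine gene Tnf (-1.02 ± 0.31, adjusted p = 0.0343) and the adhesion molecules Vcam1 (-0.78 ± 0.22, 0.0273) and Icam1 (-0.51 ± 0.15, 0.0299). Of 16 interferon gamma pathway genes the receptor chain Ifngr2 (-0.55 ± 0.15, adjusted p = 0.0208) and the myeloid factor Irf8 (-0.64 ± 0.19, adjusted p = 0.0364) fell.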

How the data were processed

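The deposited table holds the authors' log2 signals, 1 value a probe and array. RMA and limma are the tools named in the submitters' processing notes, without versions, and it is not stated whether RMA treated the 20 arrays together. The labels' protocols give a biotin label (GeneChip WT PLUS kit) on 100 ng of RNA. Of 28846 probes 6640 control probes were left out, 19572 carry 1 gene symbol and 2634 none here. The probe of highest mean was kept for each of 55 genes with several, which left 19505 genes, all matched to RefSeq (GRCm38.p6) by Entrez identifier. The array build is not stated, so gene coordinates are given only for RefSeq promoters.

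The tests were run in R 4.3.3 with limma 3.58.1, as 1 mean for each of 4 groups without covariate (16 residual degrees of freedom), two-sided, with Benjamini-Hochberg adjustment over all genes. The 5 comparisons set knockout against wild type within each depot, took the difference of these effects, and set g against sc within each genotype. Passed, called, rose and fell mean an adjusted p under 0.05, and no overlap means that all 5 arrays of a group lie beyond all 5 of the other. SE is limma's moderated standard error, and SD describes the 5 arrays of a group. The fit was tested on simulated data. Arrays have no counts, so no depth is given.

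The members, role groups, marker lists and tests were chosen with earlier results of these data known. Values are printed by array for members called in a knockout comparison, called in a depot comparison with a difference of at least 1, for stromal and lymphoid tissue chemokines, and for others described after their values were seen (Ccl8, Ccl12, Ccl2, Cxcl1, Cxcl2, Cxcl3, Cxcl9, Cxcl10). Residuals of sc and g arrays with the same title number correlated between -0.461 and 0.142 (median 0.0111), and 2 of 10 numbers matched their own best. Numbers 317 and 320 were the 2 lowest knockouts in both depots for 7.09% of all genes, against 0.523% to 1.82% for other pairs of numbers. Whether a number pairs the sc and g arrays was therefore not settled. The series design text counts 10 arrays under sc and another gene, PKP2, while each label gives Olfm2, and the labels were used. Alternatives were the replicate block, other fits, scalings and filters, other cells' marker means as covariates, and leaving out arrays.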

Additional observations from a re-analysis of the deposited data

Results flagged for a closer look

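In each group of 5 arrays the highest or lowest value of a member was set against the others, and a gap above Dixon's 95% critical value of 0.71 of the range was noted. This was so in 16 of 152 sets of a member and a group, where chance gives about 1 in 20. The sets share arrays and are not independent, and many of the 16 lay on sc286WT or g309 WT, so no excess over chance is read from the count. On sc286WT, an array with high lymphocyte and muscle markers, the values far above the other wild-type sc arrays were those of Ccl21b and Ccl21c at 10.52 (1 measurement), Ccl21a at 10.36, Ccl5 at 9.76, Cxcl16 at 8.64, Ccl22 at 8.61 and Ccl19 at 7.36. On g309 WT the values far above the other wild-type g arrays were those of Cxcl2 at 9.47, Cxcl3 at 8.001 and Ccl4 at 7.17.

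The other noted values were single. Ccl28 was high on g308 WT at 7.07, and Ccl17 was low on g307 WT at 5.15. Ccl4 was low on g317 KO at 4.83. Ccl24 and Ccl27a were low on sc320KO at 6.42 and 5.81, and Cxcl17 was low on sc308WT at 5.30. No member passed the test of a difference in knockout effect between g and sc.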

How the results depend on the processing

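The count of members called between knockout and wild type in sc was 0. It was 1, in each case Ccl9, with the replicate block (title number, 0.718% of all genes) and with a filter on dim genes (1.09%). The same held with quantile normalisation (0.728%) and without the hepatocyte-high arrays (0.795%). The sc count was 2 without the lymphocyte-high arrays (0.385%), 3 with the lymphocyte mean as a covariate (1.21%) and 0 to 2 when 1 array was left out. In g the count was 9, and 9 with the replicate block, 5 with the hepatocyte mean as a covariate, 0 with the macrophage mean as a covariate, 0 without the hepatocyte-high arrays and 7 to 10 when 1 array was left out. Fewer arrays or fewer residual degrees of freedom can lower such counts but need not. With the lymphocyte mean as a covariate 12.7% of all genes passed in g, beside 11.3% without it. The range of the macrophage mean does not overlap between the g groups. With it as a covariate the SE of Ccl3 in g was 0.45, beside 0.29 without it. The cause of these changes in count was not tested. The count of members whose knockout effect differed between depots was 0 in every alternative run. Between depots in wild type the count was 10, and 11 with the replicate block (20.2% of all genes). It was 0 with the macrophage mean as a covariate (0.0103%) and 8 to 12 when 1 array was left out. In knockouts it was 3, and 4 with the replicate block (4.97%), 9 without the lymphocyte-high arrays (3.38%) and 6 with the lymphocyte mean (5.37%). It was 1 with the macrophage mean (0.215%) and 3 to 4 when 1 array was left out. The replicate block gave 1 call more in sc, in wild type and in knockouts. Olfm2 in g was no longer called without the hepatocyte-high arrays (-0.85) or with the macrophage mean as a covariate (-0.86), and its other alternatives kept the call in both depots.

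Among differences called in at least 1 setting, those that changed sign were as follows, and their cause was not tested. Of the 145 member differences called in no setting 98 changed sign under at least 1 alternative, among them Cxcl3 and Cxcl9 in g without g309 WT (0.20 and 0.12). When the macrophage mean was the covariate, the knockout difference in g became 0.0179 for Ccl6, 0.16 for Ccl9 and 0.25 for Ccl8. The depot difference in wild type became -0.64 for Ccl4, -0.14 for Ccl9, -0.15 for Cx3cl1, -1.34 for Cxcl2, -0.45 for Ccl2, -0.23 for Cxcl10, -0.53 for Ccl22, -0.34 for Ccl5 and -0.98 for Cxcl3. That in knockouts became -0.14 for Ccl3, -1.27 for Ccl8 and -0.17 for Cxcl16. With the lymphocyte mean as a covariate Ccl22 came to -0.21 in wild type and 0.30 in knockouts, and with the hepatocyte mean to 0.16 in knockouts. Without the lymphocyte-high arrays Cxcl3 came to -0.37 in wild type and Ccl22 to 0.90 in knockouts. Without the hepatocyte-high arrays the depot difference in knockouts was -1.58 for Ccl21a, -1.30 for Ccl21b and Ccl21c and -0.9998 for Ccl8. When 1 array was left out the depot difference ran from -0.29 to 0.16 for Cxcl3 in wild type and, in knockouts, from -0.16 to 0.96 for Ccl21a, from -0.62 to 0.30 for Ccl22 and from -0.16 to 0.60 for Ccl8. Signals near the negative controls limit what can be said of Cxcl5, Cxcl11 and Ccl26.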
